A study of Arabidopsis thaliana with 16 samples.

Results

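COR15A (AT2G42540), COR15B (AT2G42530) and LTI30 (AT3G50970) are cold-regulated genes of Arabidopsis thaliana, and their transcript levels were followed over 16 arrays of seedling RNA. The 3 genes were taken by locus, as the array probe sets annotated to that single locus, and each had 1 probe set, so that they make up 3 of the 22746 probe sets tested. They were chosen by their measured levels in these arrays, COR15A and COR15B for the difference between hsfa2 and WT and LTI30 for that with heat in A2QK, so their own levels and differences are given as a description, without a test.

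The series set 4 genotypes against each other, each at 22 °C and after heat, with 2 arrays in each of the 8 groups, in order to find genes that depend more on the HSFA1 group of heat shock transcription factors or more on HSFA2. The hsfa2 seedlings carry a knockout of HSFA2 in the Col-0 accession. A2QK is 1 line that expresses HSFA2 from the viral CaMV 35S promoter in QK, and QK is a quadruple knockout of the HSFA1 genes A, B, D and E. Both QK and A2QK have a mixed genetic background of Col-0 and a second accession, Ws. In comparisons of either with WT or hsfa2, genotype and background cannot be told apart. WT is Col-0. All seedlings were 7 days old, from seed kept at 4 °C for 3 days and then grown at 22 °C with 16 h of light. The heated groups spent 1 h in a water bath at 37 °C, and the labels name no cold treatment of the seedlings.

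Levels are log2 values made by RMA, which summarises the probes of a gene after adjusting the arrays to each other, so that 1 unit is a doubling. They ran from 1.58 to 13.4, with array medians of 4.87 to 5.20 and correlations of 0.959 to 0.995 between the 2 arrays of a group. Low levels are compressed on this scale, and arrays have no read depth, so their number limits the precision. Whether both arrays of a group were separate cultures is not in the labels, so errors and p-values cover the spread between arrays, and that spread may be technical. No probe set was listed for HSFA2 or for the 4 disrupted HSFA1 genes, and the genotypes could not be checked on them. The leaf markers RCA, PRK and SBPASE were high on every array (10.4 to 13.1), and the root hair expansins EXPA7 and EXPA18 ran from 3.69 to 6.85.

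COR15A and COR15B encode small, hydrophilic proteins of the chloroplast that protect its membranes when cold or drought draws water from the cell. In cold-treated plants both are switched on by the CBF transcription factors, which bind a short element shared by many cold-regulated promoters, and in warm-grown plants they are usually low. LTI30 is a dehydrin, a water-loving late embryogenesis abundant (LEA) protein that associates with membranes, and its transcript accumulates with cold and with the hormone abscisic acid. COR15A and COR15B lie next to each other in the TAIR10.1 assembly annotation, and their coding sequences are closely related. Cross-hybridisation between their probe sets was not tested. In whole seedlings a higher level in some cells cannot be told apart from more cells that express the gene.

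COR15A stood far above all other groups in hsfa2 seedlings, with or without heat. In hsfa2 it was at 10.89 and 11.00 after heat and at 10.67 and 10.84 at 22 °C. In A2QK it was at 5.94 and 6.02 after heat and at 6.34 and 6.56 at 22 °C. In QK it was at 4.44 and 4.12 after heat and at 4.41 and 3.99 at 22 °C, and in WT at 4.92 and 3.75 after heat and at 4.86 and 3.61 at 22 °C. The arrays fell into 3 tiers with no overlap: hsfa2 on top, A2QK between, and QK with WT at the bottom. Set against the other probe sets of the same array, COR15A lay above 98.6% to 99.0% of them in hsfa2, above 62.5% to 70.5% in A2QK, above 36.3% to 42.5% in QK and above 32.2% to 49.6% in WT.

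**Figure D1:**
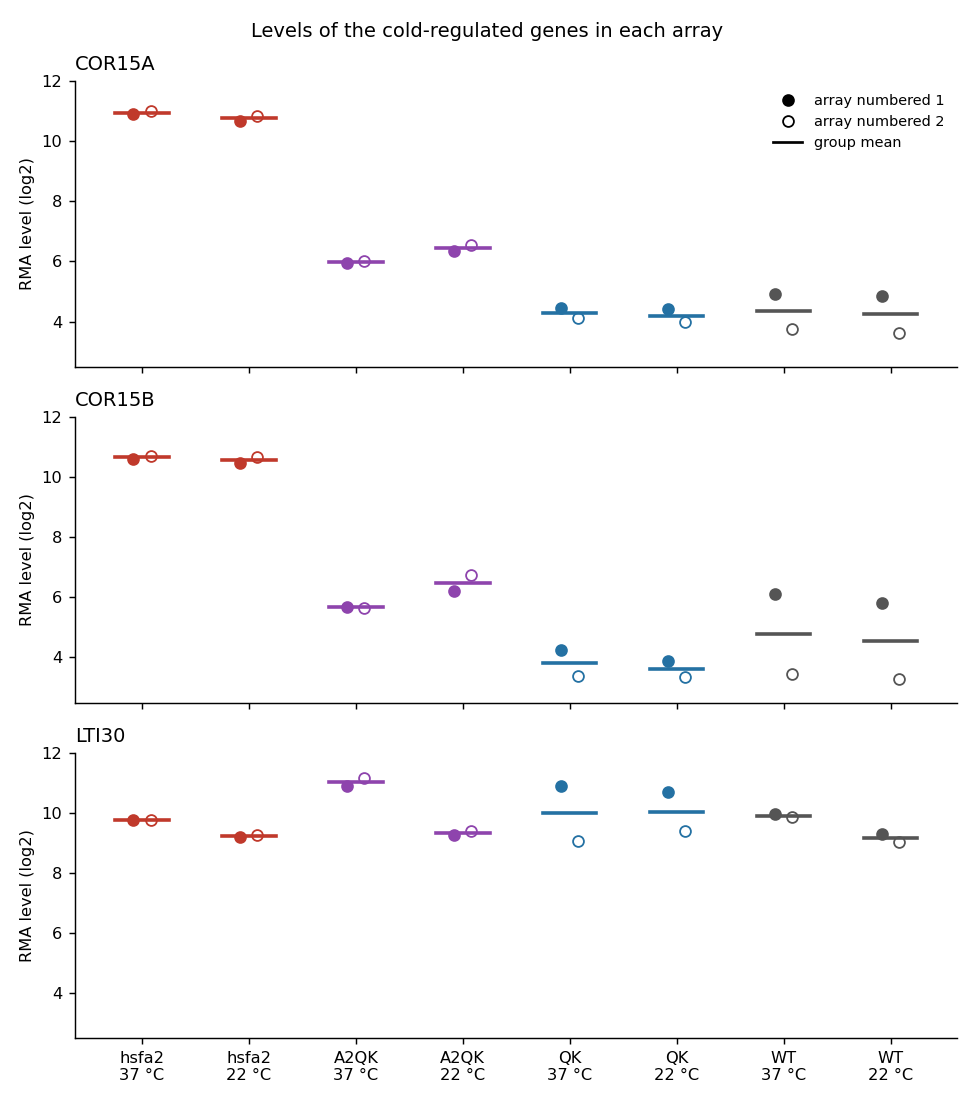
RMA level (log2) of COR15A, COR15B and LTI30 in each of the 16 arrays, by genotype and temperature. Points are arrays, filled for number 1 and open for number 2, and bars are group means. COR15A and COR15B lie above 10 in all 4 hsfa2 arrays and below 7 in the other 12, while LTI30 lies between 9.04 and 11.2 throughout.

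By group, COR15A averaged 10.95 ± 0.08 in heated hsfa2 and 10.75 ± 0.12 in hsfa2 at 22 °C (SD, n = 2, as for all group levels here), without overlap. A2QK followed with 6.45 ± 0.15 at 22 °C and 5.98 ± 0.06 after heat. The 4 lowest groups, heated WT (4.33 ± 0.82), heated QK (4.28 ± 0.23), WT at 22 °C (4.23 ± 0.89) and QK at 22 °C (4.20 ± 0.30), overlapped and cannot be put in an order beyond their spread.

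COR15B followed the same outline with a wider spread at the low end. In hsfa2 it was at 10.60 and 10.70 after heat and at 10.45 and 10.68 at 22 °C. In A2QK it was at 5.68 and 5.65 after heat and at 6.20 and 6.74 at 22 °C. In QK it was at 4.24 and 3.39 after heat and at 3.86 and 3.36 at 22 °C, and in WT at 6.12 and 3.46 after heat and at 5.80 and 3.27 at 22 °C. The hsfa2 arrays again shared no range with the others, but here the WT arrays numbered 1 reached the level of A2QK. Group means were 10.65 ± 0.07 in heated hsfa2 and 10.57 ± 0.16 in hsfa2 at 22 °C, which overlapped each other, then 6.47 ± 0.38 in A2QK at 22 °C and 5.67 ± 0.03 in heated A2QK. Heated WT (4.79 ± 1.88), WT at 22 °C (4.53 ± 1.79), heated QK (3.81 ± 0.60) and QK at 22 °C (3.61 ± 0.36) came last, with ranges that overlapped their neighbours.

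LTI30 behaved differently from both COR15 genes: it was high in every array, above 94.2% to 99.2% of the probe sets, and its highest group was heated A2QK. In A2QK it was at 10.89 and 11.17 after heat and at 9.28 and 9.42 at 22 °C. In hsfa2 it was at 9.78 and 9.76 after heat and at 9.20 and 9.26 at 22 °C. In QK it was at 10.90 and 9.08 after heat and at 10.68 and 9.38 at 22 °C, and in WT at 9.97 and 9.85 after heat and at 9.30 and 9.04 at 22 °C. The 2 QK arrays of each temperature lay further apart than the arrays of any other group, and heated QK number 1, at 10.90, lay within the range of heated A2QK. The group means ran from 11.03 ± 0.20 in heated A2QK through QK at 22 °C (10.03 ± 0.92), heated QK (9.99 ± 1.29), heated WT (9.91 ± 0.08), heated hsfa2 (9.77 ± 0.01) and A2QK at 22 °C (9.35 ± 0.10) to hsfa2 at 22 °C (9.23 ± 0.04) and WT at 22 °C (9.17 ± 0.19).

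Between hsfa2 and WT, COR15A differed by 6.52 ± 0.40 at 22 °C (log2 ± SE of the fit over all 16 arrays, as for all differences here), the widest measured difference of the 22746 probe sets. Within number 1 it was 5.80 and within number 2 it was 7.23. The labels do not say that the numbers pair arrays of different groups. Between hsfa2 and WT at 22 °C, deviations by number correlated at only 0.03 over all probe sets. Values within a number, here and below, are therefore not paired estimates and mainly show the split of WT or QK. After heat the difference was 6.61 ± 0.40, with 5.98 and 7.25 within number 1 and 2. COR15B differed by 6.04 ± 0.82 at 22 °C (4.66 and 7.41 within number 1 and 2), second only to COR15A. After heat COR15B differed by 5.86 ± 0.82, with 4.48 and 7.24 within number 1 and 2. In WT all 4 levels of COR15A and the number 2 levels of COR15B lay under the medians of their arrays. Whether they were above background is not known from these values, so no fold is given and the sizes depend on the low end of the scale. LTI30 showed no such step: it differed between hsfa2 and WT by 0.06 ± 0.49 at 22 °C and by -0.14 ± 0.49 after heat. These differences chose the genes. Over all probe sets 3.98% were called higher and 3.92% lower in hsfa2 than in WT at 22 °C, and 4.18% and 3.83% after heat.

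In A2QK the COR15 genes stood above QK, its parent genotype, by less than hsfa2 stood above WT. COR15A was higher in A2QK by 2.25 ± 0.40 at 22 °C (1.93 and 2.57 within number 1 and 2) and by 1.70 ± 0.40 after heat (1.50 and 1.91). COR15B was higher by 2.86 ± 0.82 at 22 °C (2.33 and 3.38) and by 1.85 ± 0.82 after heat (1.45 and 2.26). A2QK and QK arrays did not overlap for either gene. Between hsfa2 and A2QK, COR15A still differed by 4.30 ± 0.40 at 22 °C and 4.97 ± 0.40 after heat, and COR15B by 4.10 ± 0.82 and 4.99 ± 0.82. LTI30 differed between A2QK and QK by -0.68 ± 0.49 at 22 °C and 1.04 ± 0.49 after heat, with -0.01 within number 1 and 2.09 within number 2 after heat. Without QK array 1 these were -0.04 and 1.95, and without QK array 2 they were -1.33 and 0.13. Over all probe sets 5.17% were called higher and 3.92% lower in A2QK than in QK at 22 °C, and 6.2% and 6.12% after heat.

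QK, which lacks the HSFA1 factors, did not show the high COR15 levels of hsfa2, which lacks HSFA2. QK also differs from both hsfa2 and WT by its mixed background, and the 2 cannot be told apart here. COR15A differed between QK and WT by -0.04 ± 0.40 at 22 °C and -0.05 ± 0.40 after heat. COR15B gave -0.92 ± 0.82 and -0.98 ± 0.82, most of it within number 1 (-1.93 at 22 °C and -1.88 after heat, against 0.09 and -0.07 within number 2), and without WT array 1 it was 0.34 at 22 °C and 0.35 after heat. LTI30 was higher in QK at 22 °C by 0.86 ± 0.49 (1.38 and 0.35 within number 1 and 2), and after heat it differed by 0.08 ± 0.49, with 0.93 and -0.77. The 22 °C difference was 0.21 without QK array 1. Of all probe sets 1.22% were called higher and 0.972% lower in QK than in WT at 22 °C, and 4.17% and 3.33% after heat.

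**Figure D2:**
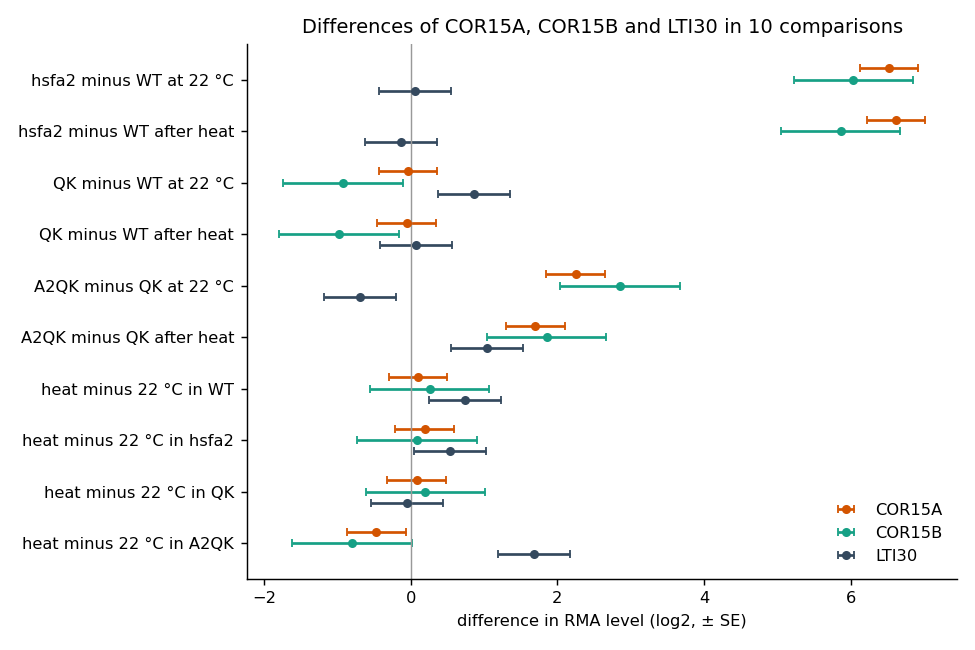
Differences of COR15A, COR15B and LTI30 in RMA level (log2) for the 10 comparisons between groups, with the SE of the fit over 16 arrays as bars. COR15A and COR15B lie near 6 for hsfa2 minus WT and near 2 to 3 for A2QK minus QK, whereas the LTI30 value furthest from 0 is that for heat minus 22 °C in A2QK (1.68).

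Differences with 1 h of heat were small for the COR15 genes. COR15A differed between 37 °C and 22 °C by 0.19 ± 0.40 in hsfa2, by -0.47 ± 0.40 in A2QK, by 0.08 ± 0.40 in QK and by 0.10 ± 0.40 in WT. COR15B differed by 0.09 ± 0.82 in hsfa2, -0.80 ± 0.82 in A2QK, 0.20 ± 0.82 in QK and 0.26 ± 0.82 in WT. In A2QK alone the heated arrays lay below the unheated ones for both genes. LTI30 differed most with heat in A2QK, by 1.68 ± 0.49 (1.61 and 1.75 within number 1 and 2), followed by 0.74 ± 0.49 in WT (0.66 and 0.81) and 0.54 ± 0.49 in hsfa2 (0.58 and 0.50). Counted from the highest heat difference in A2QK, LTI30 ranked 503 of 22746 probe sets. In QK it gave -0.04 ± 0.49, with 0.22 and -0.31, so QK alone had no shared direction. The heat response of LTI30 in A2QK exceeded that in QK by 1.73 ± 0.69, and by 0.82 without QK heat array 2, 1.08 without QK 22 °C array 1, 2.37 without QK 22 °C array 2 and 2.64 without QK heat array 1. Some tissue markers also fell with heat by limma: PRK, 1 of 3 measured leaf markers, in hsfa2 (-0.76 ± 0.22), A2QK (-0.77 ± 0.22) and QK (-0.88 ± 0.22), the root marker EXPA7 in A2QK (-1.68 ± 0.28) and QK (-1.29 ± 0.28), and the other root marker, EXPA18, in hsfa2 (-1.54 ± 0.38) and A2QK (-1.97 ± 0.38). In WT no marker passed, with PRK at -0.66 ± 0.22, EXPA7 at -0.90 ± 0.28 and EXPA18 at -1.27 ± 0.38. The part of these markers in the heat differences of LTI30 was not tested. Heat raised 5.61% of all probe sets and lowered 8.33% in hsfa2, against 6.59% and 9.21% in A2QK, 2.52% and 4.34% in QK, and 3.31% and 5.33% in WT.

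The low COR15 levels of WT and QK moved with the array number, and so did other listed genes, among them COR27, AT4G33980 and GI. COR27 and AT4G33980 are on the cold-regulated list, COR27 links cold and light signals to the clock, and GI (GIGANTEA) is a clock component. COR27 was at 8.23 to 8.40 in hsfa2, at 6.33 to 8.03 in A2QK, at 7.34 to 8.26 in the WT and QK arrays numbered 1, and at 2.30 to 3.07 in those numbered 2. AT4G33980 ran from 7.36 to 8.16 in hsfa2, 6.08 to 7.47 in A2QK, 7.20 to 7.78 in WT and QK number 1 and 2.69 to 4.07 in number 2. GI ran from 7.42 to 8.20 in hsfa2, 7.04 to 8.33 in A2QK, 7.32 to 7.93 in WT and QK number 1 and 5.09 to 5.70 in number 2.

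For these 3 genes the number 2 arrays of WT and QK thus stood apart from the other 12, and of all 22746 probe sets COR27 had the widest excess of number 1 over number 2 that all 4 WT and QK groups shared. Of all probe sets 36 were higher and 43 lower by at least 2 in number 1 than in number 2 in every one of these 4 groups, and 0 and 0 in the 4 groups of hsfa2 and A2QK. COR15A was higher in number 1 than in number 2 by 1.26 in WT at 22 °C and by 1.16 in heated WT, and in QK by 0.42 and 0.33. COR15B was higher by 2.53 and 2.66 in WT and by 0.51 and 0.85 in QK, and LTI30 by 0.27 and 0.12 in WT and by 1.30 and 1.82 in QK. By the smallest such excess over the 4 groups, COR15B ranked 746, COR15A 1353 and LTI30 2913 of all 22746 probe sets. Other listed genes split too: ALDH7B4, EIN3, COR47 and AT1G54410 were higher in number 1 in all 4 groups, and LEA4-5 and AtLEA4-1 lower. What sets the numbers apart is not given in the labels. Within number 1, COR27 differed between hsfa2 and WT by 0.99 at 22 °C and 0.88 after heat and GI by 0.19 and -0.29, and COR15A by 5.80 and 5.98.

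**Figure D3:**
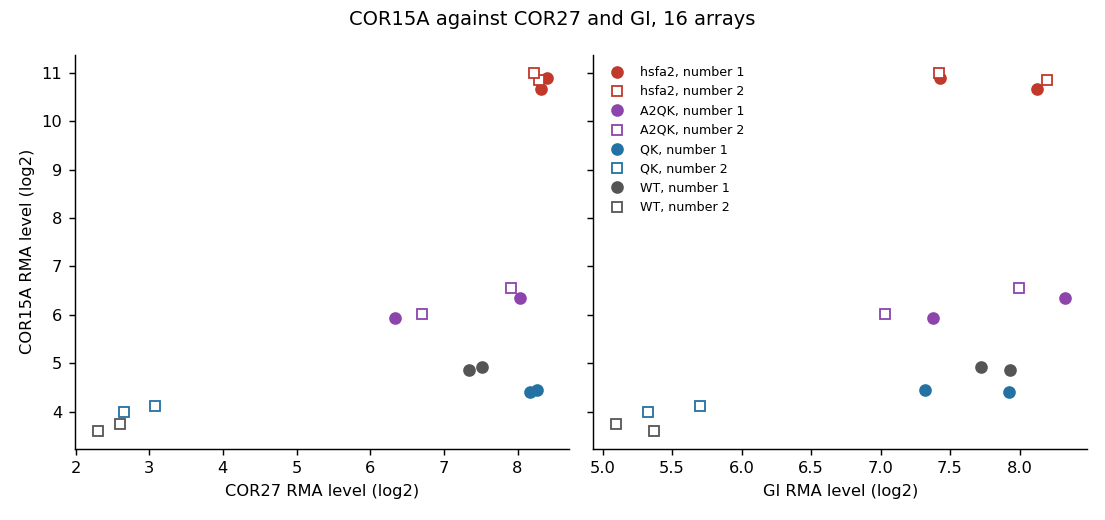
COR15A level against COR27 (left) and GI (right), RMA log2, 1 point per array, circles for number 1 and squares for number 2. WT and QK arrays numbered 2 lie apart at COR27 below 3.1 and GI below 5.8. The hsfa2 arrays lie near 11 for COR15A, at COR27 and GI levels whose ranges overlap those of WT and QK number 1.

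COR15A and COR15B varied together over the arrays, and LTI30 was less closely related to them. Pearson's r between COR15A and COR15B was 0.983 over 16 arrays, 0.900 over the 12 arrays other than hsfa2 and 0.910 over the 8 WT and QK arrays, where the points share the split by number. Over 16 arrays r was -0.16 between LTI30 and COR15A, and -0.18 between LTI30 and COR15B. Over the 12 arrays other than hsfa2 these were 0.245 and 0.143, and over the 8 WT and QK arrays 0.348 and 0.156. Spearman's rank correlations over those 8 arrays were 0.50 and 0.595. These values describe arrays that fall into genotype clusters, so no test goes with them.

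Of 8487 probe sets that ranged over at least 1 unit, those most like COR15A over the 16 arrays, among probe sets of a single named gene, were COR15B, AT3G02120 (r = 0.980), AT4G12490 (0.951), atpI (0.942) and TBL36 (0.941). The gene atpI is encoded in the plastid and codes for a subunit of its ATP synthase, and TBL36 belongs to a family of cell wall acetylation proteins. Those most like COR15B were AT3G02120 (r = 0.985), COR15A, AT3G47836 (0.963), AT3G55760 (0.951) and CAF1 (0.948), a chloroplast intron splicing factor. AT3G02120 spans a much smaller range than the COR15 genes: it averaged 5.89 in heated hsfa2 and 5.96 in hsfa2 at 22 °C, 4.92 and 4.98 in A2QK, 4.43 and 4.38 in QK, and 4.38 and 4.52 in WT. The genes most like LTI30 were less close: AT5G65490 (r = 0.847), AT3G02860 (0.840), AT3G25910 (0.837), AT1G29040 (0.830) and AT4G05460 (0.827), each at its highest mean in heated A2QK.

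The next pattern was drawn from COR15A itself, so the place of the COR15 genes in it follows from their choice and is a description. A level in all 4 hsfa2 arrays at least 1 unit above all other 12 arrays was found for 14 of 22746 probe sets (0.0615%), of which 8 had a named gene. COR15A had the widest gap (4.11), then COR15B (3.72), ndhJ (2.01), AT1G31690 (1.51), ndhK (1.42), AT4G12490 (1.40), atpI (1.27) and rpl14 (1.22). Of these, ndhJ and ndhK code for subunits of the plastid NDH complex and rpl14 for a plastid ribosomal protein, all 3 encoded in the plastid like atpI. The 3-tier order of COR15A, with all A2QK arrays also above all WT and QK arrays, was shared by 3 of these 14 probe sets, and COR15A was the only one of the 3 with a named gene. Its gap between A2QK and the WT and QK arrays was 1.03.

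Other genes of cold and dehydration responses were set beside these 3. From 4 lists (COR and LEA effector genes, cold signalling regulators, abscisic acid and dehydration genes, and clock genes) 15 of 179 genes had a probe set of their own: 9 of 51 effectors, 4 of 48 regulators, 1 of 57 abscisic acid genes and 1 of 23 clock genes. The CBF genes are not among the 15 and are not analysed here, and CHLM, an enzyme of chlorophyll synthesis on the effector list, belongs there only by an error in drawing it up and passed in no comparison. With limma and Benjamini-Hochberg adjustment over all probe sets, 0 of 15 genes were called higher and 1 lower in hsfa2 than in WT at 22 °C, and again 0 and 1 after heat, where 2 and 3 genes had an unadjusted p under 0.05. Of all probe sets 3.98% were higher and 3.92% lower at 22 °C, and 4.18% and 3.83% after heat, so for 15 genes these counts are near the background and are no result about the lists. The list medians were -0.37 and -0.09, against 0.01 and 0.03 over all probe sets.

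The gene lower in hsfa2 was SIZ1, a SUMO ligase that stabilises a regulator upstream of the CBF genes. On its first probe set SIZ1 was at 3.23 and 3.32 in heated hsfa2, against 5.49 and 6.09 in heated WT, a difference of -2.51 ± 0.38 (limma adjusted p = 0.00387), and at 22 °C it differed by -2.11 ± 0.38 (adjusted p = 0.00724). On its second probe set it differed by -1.09 ± 0.14 (limma adjusted p = 0.00176) after heat and -0.93 ± 0.14 (adjusted p = 0.00328) at 22 °C. SIZ1 was also lower in A2QK than in QK, by -1.80 ± 0.38 (limma adjusted p = 0.00915) after heat and -2.17 ± 0.38 (adjusted p = 0.00552) at 22 °C on the first probe set, and by -0.69 ± 0.14 (adjusted p = 0.0078) and -0.88 ± 0.14 (adjusted p = 0.00344) on the second. On the first probe set the calls were lost without hsfa2 22 °C array 1 (hsfa2 against WT at 22 °C, -1.93), without A2QK 22 °C array 1 (A2QK against QK at 22 °C, -1.90), and without QK heat array 2 (-1.38) or A2QK heat array 2 (-1.69) in the comparison of heated A2QK with heated QK. On the second they were lost in that comparison without QK heat array 1 (-0.53), A2QK heat array 1 (-0.69) or A2QK heat array 2 (-0.70), so that without A2QK heat array 2 neither probe set passed. With only the 4 arrays of the comparison fitted, neither probe set passed between hsfa2 and WT at either temperature, and the second did not pass between A2QK and QK. In those fits 0 of all 22746 probe sets were higher and 0 lower between hsfa2 and WT at 22 °C. After heat 0 were higher and 1 lower, so the loss was not particular to SIZ1. Between A2QK and QK 232 were higher and 210 lower at 22 °C, and 996 and 823 after heat. COR27 gave 3.49 ± 2.17 between hsfa2 and WT at 22 °C (limma adjusted p = 0.378) and AT4G33980 gave 2.98 ± 1.69 (adjusted p = 0.326). Neither passed over the 16 arrays, in which number 1 and number 2 of WT lay 5.04 and 4.93 apart.

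Some listed genes were also compared with the WT and QK arrays numbered 2 left out, a choice made after the data were seen. A single array then remained in each WT and QK group, and the spread between arrays came from hsfa2 and A2QK alone. Effect sizes are therefore given without a test. The genes named at each temperature are those that passed the call threshold in that fit. They are thus a selection, and the other listed genes are left out. At 22 °C COR27 was higher in hsfa2 than in WT by 0.97. SIZ1 (-1.56 and -0.94 on its first and second probe set), EIN3 (-1.20), STZ (-2.18) and ALDH7B4 (-1.25) were lower. EIN3 is a transcription factor of ethylene signalling, STZ (also called ZAT10) is a zinc finger repressor induced by stress, and ALDH7B4 is an aldehyde dehydrogenase induced by dehydration. After heat COR27 was higher by 0.79, and SIZ1 (-2.21 and -1.13), EIN3 (-0.97) and ALDH7B4 (-0.80) were lower. In that fit COR15A in hsfa2 exceeded WT by 5.89 at 22 °C and 6.03 after heat.

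Between A2QK and QK, 0 of the 15 genes were called higher and 1 lower at 22 °C (5 at an unadjusted p under 0.05, median -0.29, against 0.004 over all probe sets). After heat 1 was higher and 1 lower (median -0.03, against -0.02). Between QK and WT, 1 was higher and 0 lower at 22 °C (4 at an unadjusted p under 0.05, median 0.40, against -0.001), and 2 were higher and 1 lower after heat (median 0.02, against 0.01). Over all probe sets the shares higher and lower were 5.17% and 3.92% at 22 °C and 6.2% and 6.12% after heat for A2QK against QK, and 1.22% and 0.972% at 22 °C and 4.17% and 3.33% after heat for QK against WT. Counts of 0 to 2 among 15 genes are too few to be set apart from these. The genes higher in QK were group 4 LEA genes, which code for proteins best known from drying seeds. Loss of the HSFA1 genes and the mixed background of QK cannot be told apart in these differences from WT. AtLEA4-1 was at 6.92 and 8.52 in QK at 22 °C, against 3.80 and 4.22 in WT, a difference of 3.71 ± 0.58 (limma adjusted p = 0.0068). After heat AtLEA4-1 differed by 4.44 ± 0.58 (adjusted p = 0.000513) and LEA4-5 by 3.45 ± 0.83 (adjusted p = 0.0247), again by limma. The LEA4-5 call was lost without WT heat array 1 (2.61) or QK heat array 2 (2.45), and the calls of both genes were lost when only the 4 arrays of a comparison were fitted. In those fits of 4 arrays, 0 of all 22746 probe sets were higher and 0 lower in QK than in WT at 22 °C, and 192 and 239 after heat. With the number 2 arrays of WT and QK left out, LEA4-5 differed between QK and WT by 3.01 at 22 °C. That sets a single array against a single array, so no test is given.

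Of the listed genes TIL was the only one called as raised by heat in 3 genotypes. TIL codes for a lipocalin that protects membranes and whose transcript is induced by both cold and heat. It was at 11.50 and 11.57 in heated hsfa2, against 8.86 and 8.70 in hsfa2 at 22 °C, and heat raised it by 2.75 ± 0.18 in hsfa2 (limma adjusted p = 2.62e-06), by 2.22 ± 0.18 in A2QK (adjusted p = 1.54e-05) and by 2.62 ± 0.18 in WT (adjusted p = 3.2e-06). In QK the difference was -0.04 ± 0.18 (limma adjusted p = 0.959). The part of the leaf and root markers that fell with heat in these values was not tested. The heat response in QK differed from that in WT by -2.66 ± 0.26 (limma adjusted p = 0.000216), and the response in A2QK exceeded that in QK by 2.27 ± 0.26 (adjusted p = 0.000805). STZ was raised by heat in hsfa2 by 2.17 ± 0.62 (limma adjusted p = 0.0392), a call that was lost when any 1 of the 8 arrays of hsfa2 and A2QK was left out. In all, heat raised 2 of the 15 genes in hsfa2, 1 in A2QK, 0 in QK and 1 in WT, and lowered 0 in each, where 3, 4, 1 and 2 genes had an unadjusted p under 0.05. Over all probe sets heat raised 5.61%, 6.59%, 2.52% and 3.31% and lowered 8.33%, 9.21%, 4.34% and 5.33% in the same order of genotypes, so these counts are near the background. The list medians were 0.06, 0.07, -0.08 and 0.22, against 0.03, -0.01, 0.03 and 0.01 over all probe sets.

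The RefSeq names of 10 measured genes, 6 of them also on the effector list, mention cold, low temperature, dehydrins or LEA proteins; they were drawn together after the data were seen. By limma 0 of the 10 were called higher in hsfa2 than in WT at either temperature. Over all probe sets 3.98% were higher at 22 °C and 4.18% after heat, so 0 of 10 is near the background. In QK 3 were higher than in WT at 22 °C and 5 after heat, where 1.22% and 4.17% of all probe sets were; since the 10 were drawn together with these values known, the counts are a description. LEA18, another group 4 member, averaged 9.81 in heated QK, against 3.80 in heated WT, and differed by 6.02 ± 0.80 (limma adjusted p = 0.000543). The dehydrin gene AT2G21490, named LEA in the annotation, averaged 6.80 in heated QK, against 2.85 in heated WT (3.96 ± 0.40, limma adjusted p = 6.85e-05). The dehydrin COR47, at 9.70 to 12.8 in all arrays, was called in no comparison over 16 arrays. Its mean was nonetheless higher after heat in WT (11.85 against 10.48), hsfa2 (12.17 against 11.04) and A2QK (12.79 against 11.58). In QK it was 11.50 against 11.24. Number 1 and number 2 of WT lay 1.56 apart at 22 °C and 0.60 apart after heat. SRC2 was lower in hsfa2 than in WT at 22 °C (-2.10 ± 0.34, limma adjusted p = 0.00457) and rose with heat in A2QK by 2.95 ± 0.34 (adjusted p = 0.000178) and in hsfa2 by 1.45 ± 0.34 (adjusted p = 0.0161). Its heat response in A2QK exceeded that in QK by 3.37 ± 0.48 (limma adjusted p = 0.00342).

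**Figure D4:**
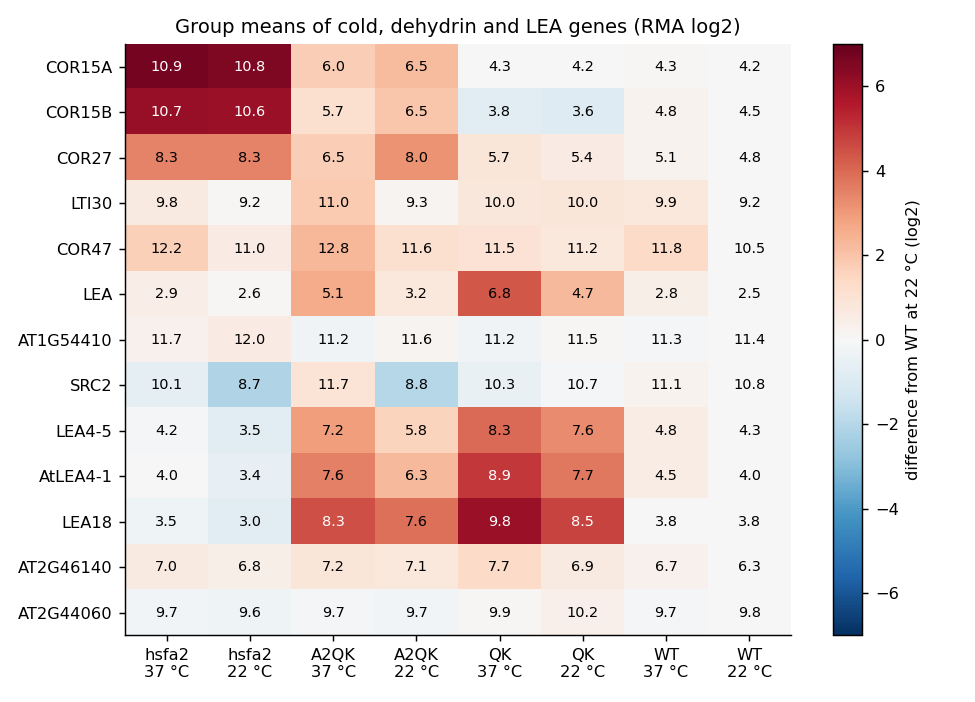
Group means (RMA log2, printed in each cell) of COR15A, COR15B, LTI30 and genes with cold, dehydrin or LEA names, coloured by the difference from WT at 22 °C. The hsfa2 columns are dark for COR15A and COR15B, and LEA4-5, AtLEA4-1 and LEA18 are high in QK and A2QK and low in hsfa2 and WT.

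The COR15 pair was chosen for its difference between hsfa2 and WT, so smaller differences in the genes beside it on chromosome 2 follow from that choice. Of the genes within 5 places on either side in the TAIR10.1 annotation, 4 others had a probe set, and 0 of the 4 were called between hsfa2 and WT. Over all probe sets 3.98% were higher and 3.92% lower at 22 °C, and 4.18% and 3.83% after heat, so 0 of 4 is near the background. At 22 °C they differed by 0.04 ± 0.19 (AT2G42490), 0.45 ± 0.15 (AT2G42520), 0.65 ± 0.64 (AT2G42560) and 0.59 ± 0.19 (TBL39), with limma adjusted p from 0.0813 to 0.936. AT2G42520 and TBL39 had an unadjusted p under 0.05. AT2G42560 (2.40 ± 0.64) and TBL39 (0.69 ± 0.19) were higher in heated QK than in heated WT (limma adjusted p = 0.0451 and 0.0479). Of all probe sets 4.17% were, and with 4 neighbours no share can be set against it.

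Near LTI30 on chromosome 3, 2 of 4 measured neighbours rose with heat in A2QK, where 6.59% of all probe sets did. AT3G50940 rose by 1.29 ± 0.14 (limma adjusted p = 0.000102) and AT3G51010 by 1.05 ± 0.19 (adjusted p = 0.00271). Both were also higher in heated A2QK than in heated QK, by 2.21 ± 0.14 and 1.41 ± 0.19 (limma adjusted p = 1.79e-06 and 0.000507), as were 6.2% of all probe sets. With 4 neighbours no share can be set against these. The others, AT3G50990 (0.07 ± 0.27) and AT3G51000 (0.42 ± 0.22), did not pass with heat in A2QK.

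**Figure D5:**
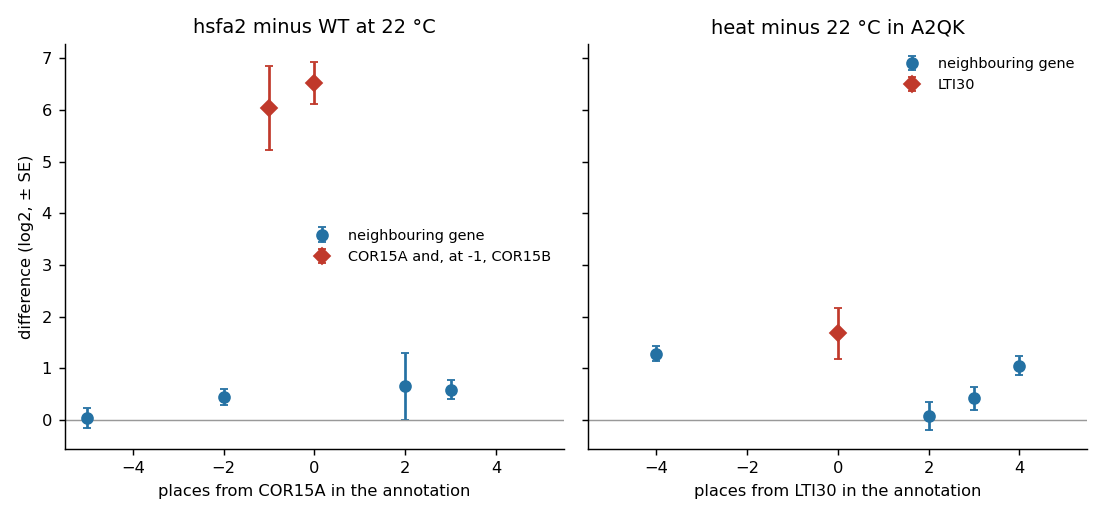
Differences (log2 ± SE) of genes by their place in the annotation, left around COR15A for hsfa2 minus WT at 22 °C and right around LTI30 for heat minus 22 °C in A2QK. The 4 measured neighbours of the COR15 pair lie between 0.04 and 0.65, and the COR15 genes, which were chosen for this difference, lie at 6.04 and 6.52.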

How the data were processed

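Biotin-labelled cRNA of whole seedlings was measured on 16 Affymetrix arrays. The authors deposited log2 values made with RMA, per the submitters' processing notes; its version and chip definition, and whether it ran on all arrays jointly, are not given in the sources used. Of 22810 probe sets 64 controls were left out. Platform annotation listed 13513 of the others with a single gene (503 with several, 8730 not listed), of which 13436 matched RefSeq genes of TAIR10.1.

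Each of 22746 probe sets was fitted in R 4.3.3 with limma 3.58.1 (lmFit, eBayes; 8 group means over 16 arrays, 8 residual and 3.37 prior degrees of freedom). The 10 comparisons were hsfa2 and QK against WT, A2QK against QK, and heat against 22 °C in each genotype. Calls are two-sided at a Benjamini-Hochberg adjusted p under 0.05 within a comparison. The fit was run on simulated data with noise drawn independently for each array. That run does not cover the spread that WT and QK arrays share by number. COR15A, COR15B, LTI30 and all gene lists were chosen with earlier results of these data known. Listed genes were named where they passed a comparison, as were the 5 genes most correlated with each of the 3 and neighbours within 5 places; COR27, AT4G33980, GI, EIN3, ALDH7B4, COR47, CHLM, the genes grouped by annotation words and those of the hsfa2 pattern were named after their values were seen. Alternatives were a replicate block, equal medians, quantile normalization, a filter on means under 5, a variance trend, the 4 arrays alone, and leaving out arrays.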

Additional observations from a re-analysis of the deposited data

Results flagged for a closer look

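The heat response of COR15A had opposite directions in hsfa2 and A2QK: both heated hsfa2 arrays lay above both unheated ones and both heated A2QK arrays below, and the response in hsfa2 minus that in A2QK was 0.66 ± 0.56 (log2 ± SE). This difference was not tested, since COR15A was chosen by its levels.

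TIL differed in its heat response between genotypes by limma's test of the difference itself. The response in QK minus that in WT was -2.66 ± 0.26 (adjusted p = 0.000216), and the response in A2QK minus that in QK was 2.27 ± 0.26 (adjusted p = 0.000805). TIL was at 11.76 and 11.76 in heated A2QK, at 9.12 and 9.35 in heated QK, and at 12.02 and 12.07 in heated WT.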

How the results depend on the processing

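Between hsfa2 and WT, COR15A ranged from 5.89 to 7.15 at 22 °C and from 6.03 to 7.20 after heat with 1 array left out, and COR15B from 4.77 to 7.30 and from 4.53 to 7.19. The heat difference of LTI30 in QK ranged from -0.95 to 0.87. Equal array medians moved the heat difference of COR15A to 0.38 in hsfa2 and -0.27 in A2QK, that of COR15B in hsfa2 to 0.27 and that of LTI30 in hsfa2 to 0.72, and quantile normalization moved the last to 0.46. The other 85 values under other settings moved by less than the SD between arrays, those without the WT and QK arrays numbered 2 among them. With 2 arrays per group, leaving out 1 cannot move a mean by more than that SD. The 120 values without 1 array therefore say nothing about stability beyond their ranges, and some of these differences changed sign. The same limit holds for the values without the arrays numbered 2, where the heat differences in hsfa2 and A2QK cannot move at all.

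Of the 15 listed genes, the counts called over 16 arrays were 1 and 1 for hsfa2 against WT at 22 °C and after heat, 1 and 3 for QK against WT, 1 and 2 for A2QK against QK, and 2, 1, 0 and 1 with heat in hsfa2, A2QK, QK and WT. With 1 array left out they ranged from 1 to 3 and 1 to 1 (hsfa2 against WT), 1 to 2 and 2 to 3 (QK against WT), and 1 to 3 and 1 to 4 (A2QK against QK). With heat they then ranged from 1 to 3 in hsfa2, 1 to 2 in A2QK, 0 to 0 in QK and 1 to 2 in WT. Leaving out any of the 8 arrays of hsfa2 and A2QK gave 1 with heat in hsfa2. Leaving out the WT and QK arrays numbered 2, added after the data were seen, gave 5 and 4 for hsfa2 against WT, 2 at 22 °C for QK against WT, 6 and 8 for A2QK against QK, and 7, 12, 1 and 3 with heat in hsfa2, A2QK, QK and WT. Fitting only the 4 arrays of a comparison gave 0 and 0 for hsfa2 against WT, 0 and 1 for QK against WT, 4 for heated A2QK against QK, and 5 and 12 with heat in hsfa2 and A2QK. Equal array medians gave 2 for A2QK against QK at 22 °C and 2 with heat in A2QK and in WT. The filter on dim probe sets gave 2 for hsfa2 against WT and 2 for A2QK against QK, both at 22 °C. In each of these cases the cause was not tested. Without the WT and QK arrays numbered 2, more of all probe sets were also called in each of the 10 comparisons. The larger list counts there are no result about the lists. In the fits of 4 arrays, heat raised 2826 and lowered 4561 probe sets in A2QK, against 1498 and 2095 over 16 arrays. In hsfa2 these were 1161 and 2249, against 1277 and 1894. Heated A2QK against QK gave 996 higher and 823 lower, against 1410 and 1393. TIL kept its call in all 115 refits, and COR15A shared 3, COR15B 2 and LTI30 0 of their 5 most similar genes when group means were used. The genes grouped by annotation words and the neighbours were fitted only over the 16 arrays.

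The labels share the numbers 1 and 2 between groups, without saying that they pair arrays, and there are only 2 per group. With the number as a block, 2 listed genes were called for QK against WT at 22 °C, 4 and 4 for A2QK against QK, and 2 with heat in A2QK and in WT. Deviations from group means correlated at 0.535 to 0.795 in the 6 pairs of WT and QK groups and at -0.022 to 0.152 in the other 22 pairs.

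Equal array medians shifted the median of all differences to 0.212, 0.188 and 0.144 with heat in hsfa2, A2QK and WT, to 0.116 for hsfa2 against WT after heat and to -0.127 for QK against WT after heat. They raised the share of higher calls with heat to 68.4% in hsfa2, 66.2% in A2QK, 48.1% in QK and 57.0% in WT, against 40.3%, 41.7%, 36.7% and 38.3% as deposited. After heat the share became 67.3% instead of 52.1% for hsfa2 against WT, 41.1% instead of 55.6% for QK against WT, and 61.0% instead of 50.3% for A2QK against QK.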
